A study of Arabidopsis thaliana with 24 samples.

Results

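The flavonoid genes DFR, UF3GT and UGT78D2 were followed across total RNA and polysome-bound RNA of Arabidopsis seedlings. They were chosen by name, as the probe sets that the array's gene table assigns to 1 gene with these symbols. This gave 3 probe sets of 22746 that are not controls, namely 249215_at for DFR (locus AT5G42800), 248185_at for UF3GT (AT5G54060) and 246468_at for UGT78D2 (AT5G17050). All of them lie on chromosome 5, and none is the annotated neighbour of another. Affymetrix ATH1 arrays had been hybridised with RNA from the aerial parts of seedlings grown for 4 days in the dark and then exposed to white light for 4 h or left in darkness. The genotypes were the control, ecotype Col-0, and dcp5-1, 1 mutant line of the gene DCP5. With 2 genotypes, 2 light conditions and 2 RNA fractions there were 8 groups of 3 biological replicates, 24 arrays in all. The 8 groups were thus control dark, control light, dcp5-1 dark and dcp5-1 light, each as total and as polysome-bound RNA.

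Flavonoids are plant phenolics that include flavonols, which absorb ultraviolet light, and the anthocyanin pigments, which colour seedlings soon after they reach the light. DFR, dihydroflavonol reductase, takes dihydroflavonols into the anthocyanin branch. UGT78D2 adds glucose at the 3 position of flavonols and anthocyanidins, and UF3GT, also known as UGT79B1, then adds xylose to the glucose of anthocyanins. DCP5 is a component of processing bodies, cytoplasmic granules that hold mRNAs away from ribosomes, and an mRNA bound by several ribosomes is recovered in the polysomal fraction. The comparisons address how light changed the RNA of these genes, whether that change differed in dcp5-1, and how their polysomal level stood against their total level.

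Values are deposited log2 signals. Deposited medians were 7.33 to 7.44 on the 12 total arrays but 4.4 to 6.75 on the 12 polysomal arrays, so each polysomal array was shifted by 1 constant, of 0.64 to 3, to the common median of 7.39. Polysomal values are therefore relative to the median transcript on the array and say nothing of how much RNA was on polysomes. Pearson's r between replicate arrays, taken over probe sets, was 0.93 to 0.96. Of 6 aerial markers listed, 3 are named on the array (RCA, LHCB4.3 and PORB), and each lay above the array median on 24 of 24 arrays. The only named one of 9 root markers, EXPA7, lay at 0.86 to 6.47, above the lower quartile on 7 arrays and above the median on 0. BAN, a seed coat flavonoid gene and the only named one of 4 such markers, lay at 0.87 to 4.67, above the lower quartile on 0 arrays. The level of DCP5 itself was not analysed here, so it gives no check of the genotype labels.

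All 3 genes rose with light in both genotypes and in both RNA fractions, without overlap between dark and light arrays in any of the 12 comparisons. How many of all probe sets were free of overlap was not counted. Overlap, here and below, is therefore description and lends no weight to a difference. In control total RNA the mean rise was 29.4-fold for UF3GT, 21.9-fold for DFR and 13.1-fold for UGT78D2. These folds are not ranked against each other, because the dark signals of DFR and UF3GT were dim. On the 12 dark arrays, DFR lay below the array's lower quartile on 7 and UF3GT on 7, but UGT78D2 on 0. No detection calls were used here, so the size of a fold from such dim values is uncertain. Over all 17059 probe sets tested, light raised 14.4% in control total RNA, 11.1% in dcp5-1 total RNA, 13.6% in control polysomal RNA and 10.4% in dcp5-1 polysomal RNA, by limma with an adjusted p threshold of 0.05. The median change over all probe sets was -0.05 to -0.04 in these 4 comparisons. Of the mean levels in the 4 dark groups, 2 lay below the filter on dim probe sets (mean log2 of 4.86) for DFR and 2 for UF3GT, but 0 for UGT78D2. The mean over the 12 dark arrays was 4.91 for DFR, just above that threshold, and 4.5 for UF3GT, which thus passed the filter through its light arrays. In such bulk samples, more cells expressing a gene and more RNA per cell cannot be told apart.

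DFR was low in the dark. On the control dark total arrays its log2 level was 4.49, 5.39 and 4.49 in replicates 1, 2 and 3, and on the control light total arrays 7.86, 10.49 and 9.39. On the dcp5-1 total arrays it was 5.02, 4.6 and 5.03 in the dark and 6.83, 8.95 and 8.01 in the light. Every light array stood above every dark array, and replicate 2 was the highest of the light arrays in both genotypes. The rise was 4.45 ± 0.60 (log2, SE, n = 3 a group; limma adjusted p = 3.6e-06) in control and 3.05 ± 0.60 (8.25-fold, limma adjusted p = 0.00055) in dcp5-1.

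In polysomal RNA, DFR read 3.88, 4.76 and 5.31 in control dark and 7.45, 9.48 and 8.28 in control light. In dcp5-1 it read 5.47, 5.86 and 4.62 in the dark and 6.64, 7.82 and 7.07 in the light. The dcp5-1 groups stood closest, their nearest dark and light arrays being 5.86 and 6.64. The polysomal rise was 3.76 ± 0.60 (13.5-fold, limma adjusted p = 3.6e-05) in control and 1.86 ± 0.60 (3.64-fold, limma adjusted p = 0.027) in dcp5-1. The dcp5-1 polysomal rise was not called when dcp5-1 dark polysomal replicate 1 (limma adjusted p = 0.052) or 3 (0.13), or dcp5-1 light polysomal replicate 2 (0.13) or 3 (0.056), was left out.

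UF3GT, the xylosyltransferase, was likewise low in the dark. Its total level was 4.82, 5.41 and 4.39 in control dark and 8.93, 10.39 and 9.94 in control light. In dcp5-1 it was 4.11, 4.24 and 3.46 in the dark and 7.81, 8.47 and 8.99 in the light. All 3 dcp5-1 dark total arrays lay below all 3 control dark total arrays, and the light arrays of the genotypes overlapped. The rise was 4.88 ± 0.52 (log2, SE; limma adjusted p = 1.6e-07) in control and 4.49 ± 0.52 (22.5-fold, limma adjusted p = 8.6e-07) in dcp5-1.

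On the polysomal arrays UF3GT read 3, 3.36 and 5.21 in control dark and 7.61, 9.84 and 8.58 in control light. In dcp5-1 it read 4.96, 5.48 and 5.5 in the dark and 7.16, 7.72 and 7.47 in the light. Control dark replicate 3 stood apart from the other two control dark arrays, and lay among the dcp5-1 dark arrays. The polysomal rise was 4.82 ± 0.52 (28.3-fold, limma adjusted p = 2e-07) in control and 2.14 ± 0.52 (4.39-fold, limma adjusted p = 0.0046) in dcp5-1. Counted from the largest rise among 17059 probe sets, UF3GT ranked 29 in control total, 29 in dcp5-1 total, 30 in control polysomal and 271 in dcp5-1 polysomal RNA. These ranks rest on its dim dark signals and are as uncertain as its folds.

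UGT78D2, the glucosyltransferase, lay near the array median in the dark, and its changes had the smallest SE of the 3 genes. Its total level was 6.71, 7.26 and 7.07 in control dark and 10.82, 10.65 and 10.71 in control light. In dcp5-1 it was 7.06, 7.10 and 7.59 in the dark and 10.66, 10.63 and 10.44 in the light. The light arrays of both genotypes thus fell within a narrow band. The rise was 3.72 ± 0.23 (log2, SE; limma adjusted p = 4.1e-11) in control and 3.33 ± 0.23 (10.1-fold, limma adjusted p = 3.8e-10) in dcp5-1.

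UGT78D2 on the polysomal arrays read 6.76, 7.20 and 6.99 in control dark and 10.86, 10.32 and 10.11 in control light. In dcp5-1 it read 7, 6.51 and 7.55 in the dark and 10.39, 9.95 and 10.20 in the light. The genotypes overlapped in the dark and in the light. The polysomal rise was 3.45 ± 0.23 (10.9-fold, limma adjusted p = 1.4e-10) in control and 3.16 ± 0.23 (8.96-fold, limma adjusted p = 8.7e-10) in dcp5-1. Its rank from the largest rise was 84 in control total, 87 in dcp5-1 total, 100 in control polysomal and 96 in dcp5-1 polysomal RNA. DFR ranked 45, 119, 67 and 388 in the same order, but its ranks rest on dim dark signals.

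**Figure D1:**
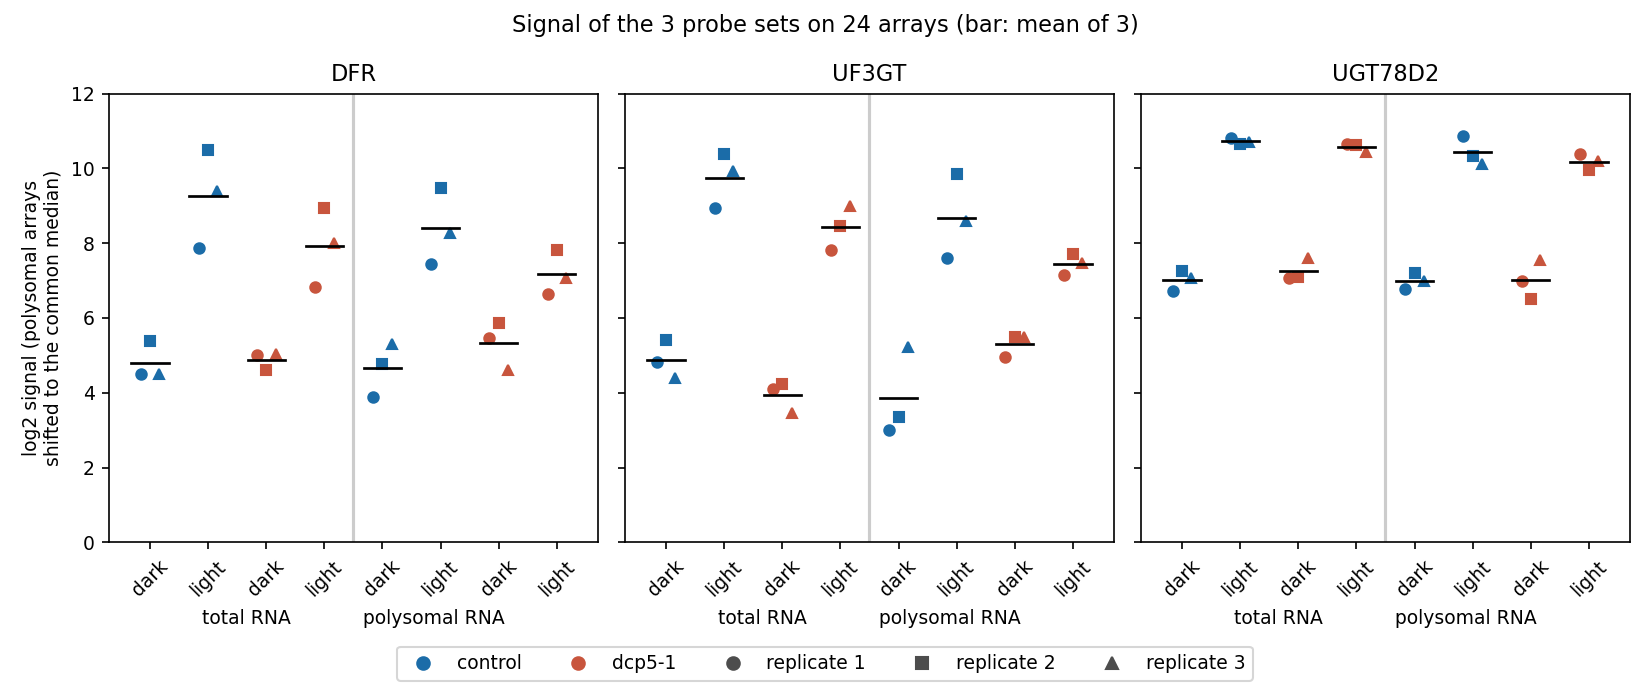
Log2 signal of DFR, UF3GT and UGT78D2 on each of the 24 arrays, by genotype, light condition and RNA fraction, with the polysomal arrays shifted to the common median; points are arrays and bars are group means. Every light array stands above every dark array of the same genotype and fraction, and the UGT78D2 light arrays lie between 9.95 and 10.86.

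The light response of each gene was then compared between genotypes, as the change in dcp5-1 minus the change in control. No such difference passed the test for any of the 3 genes. In total RNA the difference was -1.41 ± 0.84 for DFR (95% interval -3.16 to 0.34, limma adjusted p = 1), and -0.39 ± 0.74 for UF3GT (-1.93 to 1.15, limma adjusted p = 1). For UGT78D2 it was -0.38 ± 0.33 (-1.07 to 0.3, limma adjusted p = 1). Within replicate numbers it was below 0 in 3 of 3 for DFR and UF3GT and in 2 of 3 for UGT78D2. Over all probe sets 0.0469% were called in this comparison, and 0.24% with the replicate number as a block.

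In polysomal RNA UF3GT, the xylosyltransferase, had the lowest of these differences. It had a response smaller in dcp5-1 by 2.41, 4.24 and 1.41 within replicates 1, 2 and 3, and the mean difference was -2.69 ± 0.74 (95% interval -4.22 to -1.15, limma adjusted p = 0.39). The adjusted p was 0.063 with the replicate block. The dim dark signals of UF3GT enter this difference too. DFR had -2.4, -2.77 and -0.51, with a mean of -1.89 ± 0.84 (-3.64 to -0.14, limma adjusted p = 1, and 0.29 with the replicate block). UGT78D2 had -0.7, 0.33 and -0.47, with a mean of -0.28 ± 0.33 (-0.97 to 0.4, limma adjusted p = 1). Over all probe sets 0.0528% were called, and 0.293% with the replicate block. On the polysomal arrays as deposited, with no shift, the UF3GT difference was -3.58 and passed (limma adjusted p = 0.048), and 134 probe sets were called in place of 9.

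**Figure D2:**
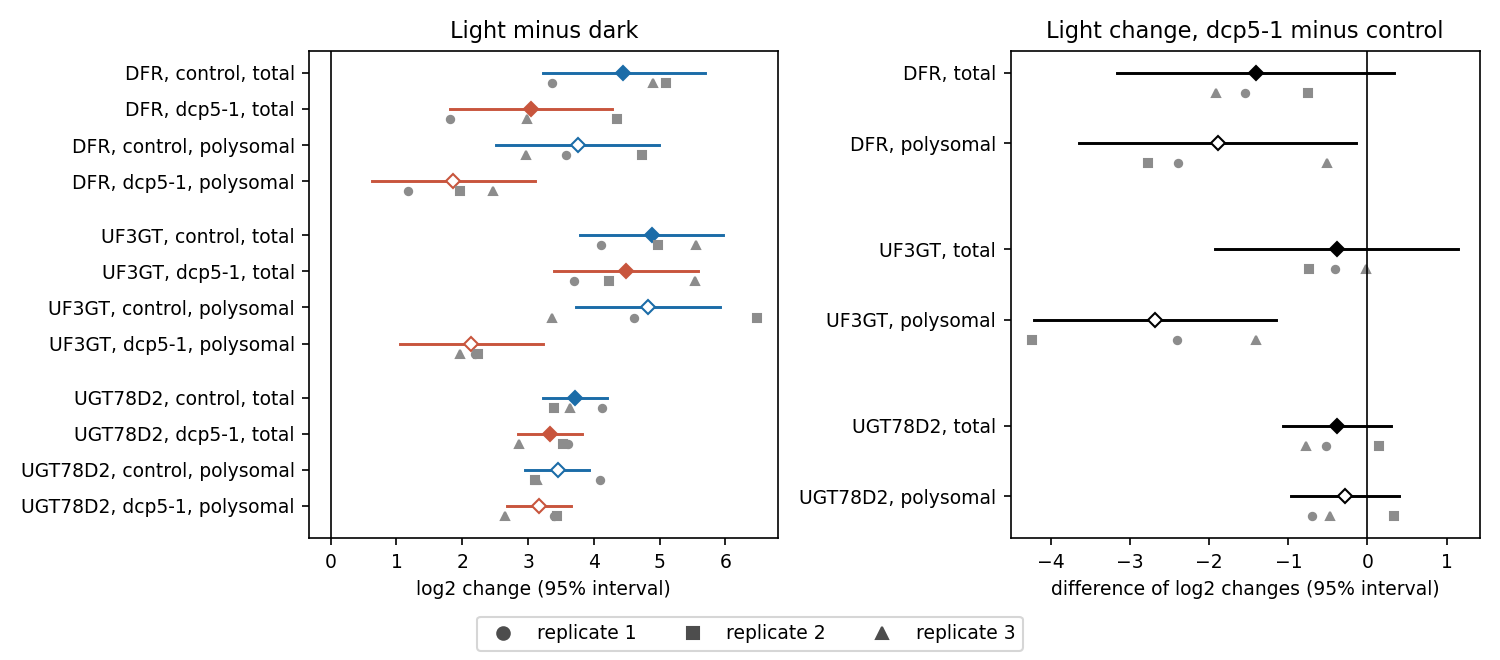
Log2 change from dark to light of each gene in each genotype and fraction, with its 95% interval from limma and the 3 changes within replicate numbers as grey points (left), and the dcp5-1 minus control difference of these changes (right). All intervals on the left lie above 0; in polysomal RNA the dcp5-1 changes of DFR (1.86) and UF3GT (2.14) lie below those of control (3.76 and 4.82), a difference that did not pass the test.

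The genotypes were also compared within each light condition, as dcp5-1 minus control. None of the 12 differences passed the test in the main fit, which has no term for the replicate number. In light total RNA the mean was -1.31 ± 0.60 for DFR (95% interval -2.55 to -0.08, limma adjusted p = 0.28) and -1.33 ± 0.52 for UF3GT (-2.42 to -0.24, limma adjusted p = 0.2). Both were lower in dcp5-1 in 3 of 3 replicate numbers, by 1.03, 1.54 and 1.38 for DFR and by 1.12, 1.92 and 0.95 for UF3GT, although the groups overlapped. Leaving out 1 array moved the DFR difference to between -2.01 (without control light total replicate 1) and -0.69 (without control light total replicate 2), and that of UF3GT to between -1.74 and -1.01. With the replicate block the limma adjusted p was 0.054 for DFR and 0.055 for UF3GT. UGT78D2 differed by -0.15 ± 0.23 (-0.63 to 0.33, limma adjusted p = 0.84). Of all probe sets 3.51% were called here, and 8.85% with the replicate block.

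In light polysomal RNA the differences were -1.23 ± 0.60 for DFR (limma adjusted p = 0.3) and -1.23 ± 0.52 for UF3GT (limma adjusted p = 0.22). With the replicate block the limma adjusted p was 0.068 for DFR and 0.073 for UF3GT. UGT78D2 differed by -0.25 ± 0.23 (limma adjusted p = 0.66). All 3 DFR pairs and all 3 UF3GT pairs were below 0. Without control light polysomal replicate 2 the difference was -0.69 for DFR and -0.65 for UF3GT, and the other fits without 1 array reached -1.7 for DFR and -1.76 for UF3GT. Of all probe sets 4.33% were called, and 10.1% with the replicate block.

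In dark total RNA the dcp5-1 level of UF3GT was lower in 3 of 3 replicate numbers, with no overlap of the groups, but the difference of -0.94 ± 0.52 did not pass (95% interval -2.03 to 0.15, limma adjusted p = 0.47). These levels were dim, as UF3GT exceeded 20.1% to 28.2% of the probe sets of the array in control and 12.7% to 18.1% in dcp5-1. DFR differed by 0.10 ± 0.60 (limma adjusted p = 0.97) and UGT78D2 by 0.23 ± 0.23 (limma adjusted p = 0.77). Of all probe sets 2.34% were called, and 6.61% with the replicate block.

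In dark polysomal RNA UF3GT had the opposite sign. Its dcp5-1 level was higher by 1.95, 2.13 and 0.29 in replicates 1, 2 and 3, and the mean of 1.46 ± 0.52 did not pass (95% interval 0.37 to 2.54, limma adjusted p = 0.14). It passed with the replicate block (limma adjusted p = 0.034), and without control dark polysomal replicate 3 it was 2.13 (limma adjusted p = 0.022). UF3GT was dim here too, exceeding 13.3% to 26.3% of the probe sets of the array in control and 24% to 28.2% in dcp5-1. The size of this difference is thus uncertain. The control dark polysomal arrays included the lowest deposited median of all, 4.4, and the part of the array shifts in the UF3GT difference was not tested. With quantile normalisation that difference was 1.15 and did not pass (limma adjusted p = 0.26). DFR differed by 0.67 ± 0.60 (limma adjusted p = 0.65) and UGT78D2 by 0.04 ± 0.23 (limma adjusted p = 0.97). Of all probe sets 3.28% were called, and 9.52% with the replicate block. With no shift of the arrays the differences were 2.35 for UF3GT (limma adjusted p = 0.0051), 1.56 for DFR (0.045) and 0.93 for UGT78D2 (0.021), and 10143 probe sets were called.

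Polysome loading was taken as the polysomal minus the total log2 level of the same group and replicate number, each relative to the array median. The fractions were normalised separately, so only differences in loading between groups are compared. UGT78D2 loading varied little, from -0.09 to 0.05 in control dark, -0.6 to 0.03 in control light, -0.58 to -0.04 in dcp5-1 dark and -0.68 to -0.24 in dcp5-1 light. DFR loading was -0.61, -0.64 and 0.83 in control dark and -0.41, -1 and -1.11 in control light. In dcp5-1 DFR loading was 0.45, 1.26 and -0.42 in the dark and -0.19, -1.12 and -0.94 in the light. The groups of DFR overlapped between genotypes in both light conditions.

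UF3GT loading was highest in dcp5-1 dark, at 0.84, 1.25 and 2.05. It was -1.82, -2.06 and 0.82 in control dark, -1.32, -0.55 and -1.36 in control light, and -0.65, -0.75 and -1.52 in dcp5-1 light. The dcp5-1 dark values thus lay above all those of the other 3 groups, the nearest being control dark replicate 3. The dark levels behind these values were dim in both fractions: UF3GT exceeded 12.7% to 28.2% of the probe sets of the array, and its dcp5-1 dark total levels all lay below the lower quartile. The sizes of the dark loading differences rest on these dim signals. In the dark, UF3GT loading in dcp5-1 minus control was 2.40 ± 0.74 (95% interval 0.86 to 3.94, limma adjusted p = 1). From dark to light in dcp5-1, UF3GT loading differed by -2.35 ± 0.74 (-3.89 to -0.82, limma adjusted p = 1). Neither passed in this fit, which treats the fractions as unpaired. Both differences share the dcp5-1 dark arrays, so they are not separate observations.

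In the light, loading in dcp5-1 minus control was 0.10 ± 0.74 for UF3GT, 0.09 ± 0.84 for DFR and -0.10 ± 0.33 for UGT78D2. From dark to light in control it differed by -0.06 ± 0.74 for UF3GT, -0.70 ± 0.84 for DFR and -0.27 ± 0.33 for UGT78D2. The dark to light difference in dcp5-1 minus that in control was -2.3 ± 1.05 for UF3GT (95% interval -4.47 to -0.12), -0.49 ± 1.19 for DFR and 0.10 ± 0.47 for UGT78D2. The limma adjusted p was 1 in all 15 loading comparisons of the 3 genes. Over all probe sets limma called 0 (0%) in each of the 5 kinds of loading comparison. At an unadjusted p under 0.05 there were 360 probe sets for light in control, 348 for light in dcp5-1, 141 for light by genotype, 223 for genotype in the dark and 340 for genotype in the light. Each count is below the share of 0.05 expected if no probe set differed. The main fit treats the fractions as unpaired, although deviations of same-numbered fractions correlated at 0.2 to 0.61. Its SEs for loading can thus be too wide, and the lack of calls does not show that loading was unchanged. A fit on the polysomal minus total pairs called 8 for light in control and 5 for light in dcp5-1. None of these were DFR, UF3GT or UGT78D2, and the lowest adjusted p of UF3GT in any loading comparison and setting was 0.11. For UF3GT the pair fit gave an SE of 0.56 in place of 0.74 for genotype in the dark and for light in dcp5-1. The limma adjusted p was then 0.65 and 0.25.

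**Figure D3:**
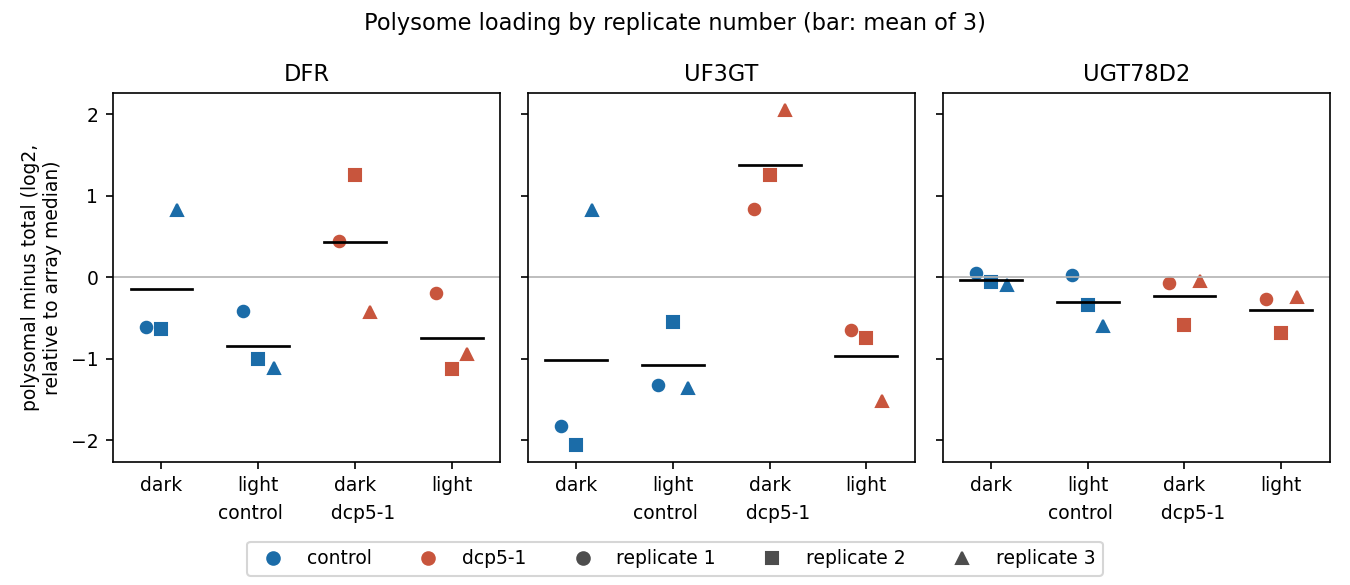
Polysomal minus total log2 level of DFR, UF3GT and UGT78D2 for each replicate number in the 4 combinations of genotype and light, with group means as bars. The 3 UF3GT values of dcp5-1 dark (0.84 to 2.05) lie above the other UF3GT values, and the UGT78D2 values lie between -0.68 and 0.05.

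Of 65 genes of the flavonoid pathway and its regulators that were listed, 11 are named with a probe set here and 9 were tested, 6 of them other than DFR, UF3GT and UGT78D2. These were CHIL, a chalcone isomerase-like protein of the pathway's first steps, UGT78D1, a flavonol rhamnosyltransferase, AT5MAT, which adds malonyl groups to anthocyanins, HYH, a bZIP factor related to HY5, and the loci AT4G14090 and AT1G06000. All 6 rose with light in both genotypes and both fractions, with a median log2 change of 3.49 in control total, 3.3 in dcp5-1 total, 3.3 in control polysomal and 3.19 in dcp5-1 polysomal RNA. In the same order, light raised 14.4%, 11.1%, 13.6% and 10.4% of all probe sets. AT4G14090 had dark means of 2.52 to 3.46, below the dim filter of 4.86, and thus passed it through its light arrays. AT5MAT lay at 4.29 in control and 4.44 in dcp5-1 dark total RNA, but at 5.03 and 4.89 in dark polysomal RNA. Its mean over all dark arrays was below the filter, so AT5MAT too passed through its light arrays. The filter thus favours a rise in such dim genes, and the list was chosen with earlier results of these data known. That all 6 rose is therefore description and lends no weight to a shared rise. In control total RNA, CHIL rose by 4.57 ± 0.46, HYH by 3.43 ± 0.28, AT5MAT by 3.55 ± 0.49 and UGT78D1 by 2.9 ± 0.34 (log2, SE). Leaving out control dark polysomal replicate 1, the array with the lowest deposited median, still gave 6 of 6 higher in control polysomal RNA, with a median of 3.06. That fit kept the same dim filter, so the same limit holds for it. The remaining named ones, BAN and UGT78D3, were below the filter on dim probe sets.

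None of the 6 had a light response that differed between genotypes by the test. The median difference, dcp5-1 minus control, was -0.38 in total and -0.6 in polysomal RNA, beside -0.01 and 0.02 over all probe sets. All 6 rose with light, but only 14.4% of all probe sets did in control total RNA. The 2 sets are thus unlike, and whether other genes raised by light shift likewise was not tested. In polysomal RNA CHIL had -1.22 ± 0.65 and AT4G14090 -1.64 ± 1.19, whereas AT1G06000 had 0.28 ± 0.44 (limma adjusted p = 1 for each). Of the 6, AT1G06000 was lower in dcp5-1 polysomal RNA in the dark (-1.35 ± 0.31, limma adjusted p = 0.015) and in the light (-1.08 ± 0.31, limma adjusted p = 0.049). In total RNA AT1G06000 had -0.98 ± 0.31 in the dark (limma adjusted p = 0.11) and -0.91 ± 0.31 in the light (limma adjusted p = 0.12), the latter with no overlap. UGT78D1 in light polysomal RNA had -1.02 ± 0.34 (limma adjusted p = 0.099), with no overlap of the genotypes. AT5MAT in light total RNA had -1.25 ± 0.49 (limma adjusted p = 0.19), also without overlap.

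**Figure D4:**
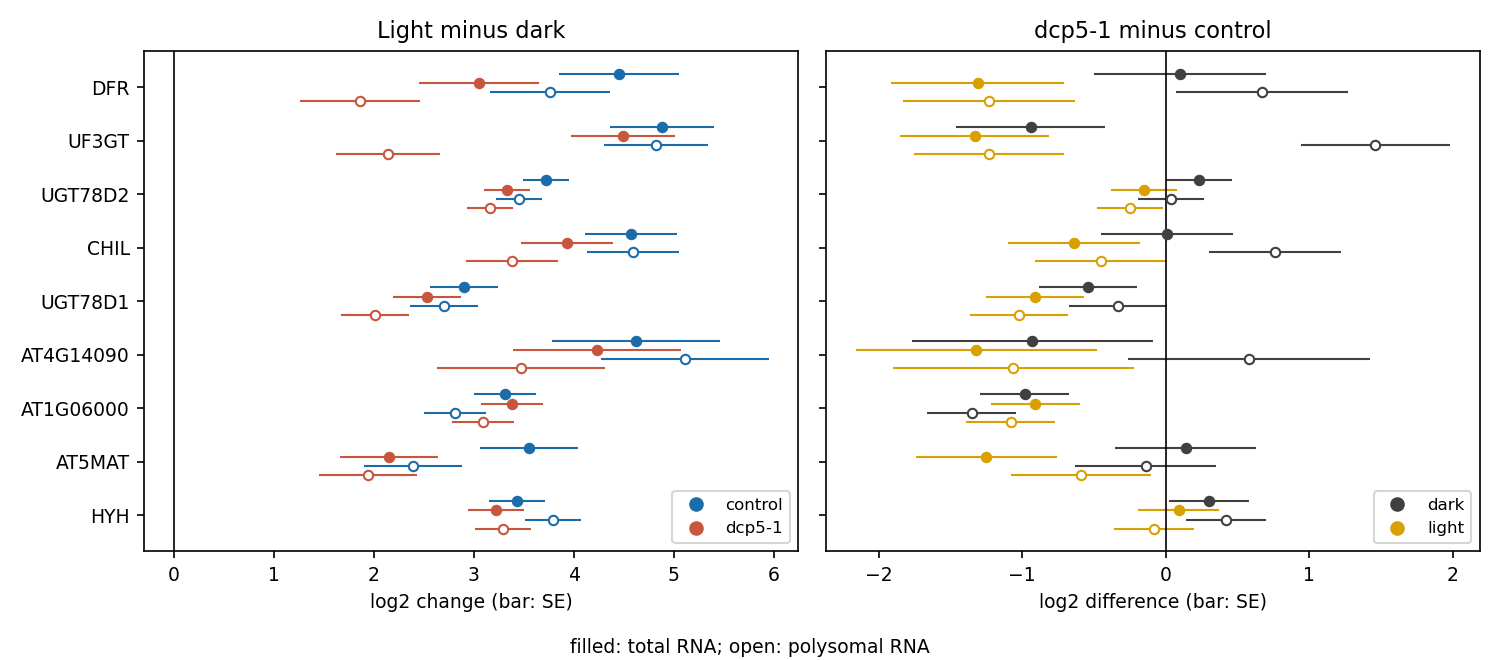
Log2 change from dark to light of the 9 tested flavonoid pathway genes in the 4 combinations of genotype and RNA fraction, and their dcp5-1 minus control difference in dark and light (right), from limma with SE; filled points are total and open points polysomal RNA. All light changes (left) lie above 0, from 1.86 for DFR in dcp5-1 polysomal RNA to 5.11 for AT4G14090 in control polysomal RNA.

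As a description of how the genes moved together, Pearson's r was taken over the 24 arrays between each gene and the other tested genes with 1 name. The arrays share the light treatment, and all genes named here were compared over the same dark and light arrays. DFR and UF3GT were each other's closest, at r = 0.959 for DFR with UF3GT as its first-ranked gene. UGT78D2 ranked 65 for DFR (r = 0.874) and 32 for UF3GT (r = 0.902). Each of these ranks was taken against the genes other than these 3. Beyond these 3 genes, DFR was most like AT5G43150 (r = 0.948), AT5G62720 (0.943), AT3G20370 (0.936), BGLU47 (0.924) and UGT78D1 (0.923). UF3GT was most like HOS3-1 (0.947), AT3G20370 (0.946), AT3G45210 (0.931), BGLU47 (0.927) and EXPB3 (0.926). AT3G20370 and BGLU47 were in both lists. UGT78D2 was most like AT4G27700 (0.987), MSRB6 (0.984), AT5G41050 (0.981), HYH (0.979) and AT3G56290 (0.978), and shared none of its 5 with the others.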

How the data were processed

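Total and polysome-bound RNA of aerial seedling parts was measured on 24 Affymetrix ATH1 arrays, in 8 groups of 3 biological replicates per the labels. The values deposited by the authors are log2 signals per probe set, processed with GCOS 1.4 per the submitters' processing notes. On the total arrays the lowest value was 0. On the polysomal arrays it was -2.87 to -0.51, and why these arrays carry an offset each is not given in the sources used here. The polysomal arrays were shifted to the mean median of the total arrays.

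The table has 22810 probe sets. After removal of 64 controls and then of the dimmest 25% by mean signal, 17059 remained for testing. Probe sets were named from the platform's gene annotation with symbols of a RefSeq gene table: 13513 with 1 gene, 503 with several and 8730 with none. A model with a mean per group, over all 24 arrays, was fitted by limma 3.58.1 (R 4.3.3), with the variance prior allowed to follow intensity. P-values were Benjamini-Hochberg adjusted at 0.05 over all probe sets in each of 15 comparisons. They set each difference against a spread between replicates that is pooled over all groups and moderated across probe sets. The 3 arrays a group limit the precision. The fit was also run on simulated data with independent noise and no array offsets. That run gives no check of the offsets or of deviations shared within a replicate number.

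Named were the 3 genes, the tested listed genes of the anthocyanin and modification steps, up to 3 of each other step, and the 5 most like genes of each. The members, lists and tests were chosen with earlier results of these data known. Samples of the same replicate number tended to deviate together: deviations from the group means correlated at 0.15 to 0.61 in the 36 same-numbered pairs of groups differing in 1 factor. Pairs of different numbers were not compared. The main fit has no term for the replicate number. Alternatives were the values as deposited, centring of all arrays, quantile normalisation, the replicate block, other dim filters, no trend, the compared groups alone, fraction pairs and leaving out each array.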

Additional observations from a re-analysis of the deposited data

How the results depend on the processing

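The light response held its direction and passed the test in 88 of 88 other settings over its 12 values, and in 68 of 72 fits without 1 array. The 4 exceptions were all DFR in dcp5-1 polysomal RNA, which ranged from 1.51 to 2.14. Without the 50% of probe sets with the lowest mean, DFR and UF3GT were no longer tested and have no value. With the arrays as deposited, the light by genotype difference of UF3GT in polysomal RNA was -3.58, and the dark polysomal genotype difference was 1.56 for DFR, 2.35 for UF3GT and 0.93 for UGT78D2, all past the threshold. There the dark to light loading difference in control turned to 0.58 for DFR, 1.22 for UF3GT and 1.01 for UGT78D2. UGT78D2 loading also turned to 0.21 for light in dcp5-1, -0.79 for light by genotype and 0.69 for genotype in the dark. This setting leaves the array offsets in the values. Quantile normalisation gave -0.13 for DFR in dark total RNA (genotype) and -0.01 for UGT78D2 in dark polysomal RNA; the cause was not tested. With the replicate block the dark polysomal difference of UF3GT passed at 1.46 (limma adjusted p = 0.034), and the block changed no other call of the 3 genes. The dim dark signals of UF3GT enter its dark polysomal difference.

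Without single arrays, the genotype difference was -0.06 to 0.4 for DFR in dark total RNA, 1.03 to 2.13 for UF3GT and -0.23 to 0.29 for UGT78D2 in dark polysomal RNA. Loading differences were -0.64 to 0.62 for UF3GT (light, control), -0.42 to 0.1 for UGT78D2 (light, dcp5-1), -1.11 to 0.21 for DFR and -0.15 to 0.37 for UGT78D2 (light by genotype). They were -0.46 to 0.05 for UGT78D2 (genotype, dark), and -0.54 to 0.78 for DFR, -0.43 to 0.68 for UF3GT and -0.26 to 0.12 for UGT78D2 (genotype, light).

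Counts of probe sets called, in either direction, moved with the setting. On the arrays as deposited, those for light went from 5029 to 2989 in control total, 3719 to 1999 in dcp5-1 total and 4974 to 13310 in control polysomal RNA. For light by genotype they went from 8 to 2 in total and 9 to 134 in polysomal RNA. For genotype they went from 400 to 98 in dark total, 598 to 152 in light total, 559 to 10143 in dark polysomal and 739 to 176 in light polysomal RNA. For loading they went from 0 to 11354 for light in control and to 2 for genotype in the dark. The replicate block gave 41 and 50 for light by genotype in total and polysomal RNA, 1127, 1509, 1624 and 1723 for genotype in the same order as above, and 1 for loading (light, dcp5-1). The compared groups alone gave 5 and 5 for light by genotype, 212 for dark total, 208 for dark polysomal and 315 for light polysomal RNA. Fraction pairs gave 8 and 5 loading calls for light in control and dcp5-1, and with the block 39 and 24, with 1 for genotype in the dark. Without single arrays the light by genotype counts were 5 to 10 in total and 5 to 14 in polysomal RNA, the loading counts 0 to 1, and the genotype counts 195 to 324, 320 to 508, 267 to 554 and 351 to 632, in that order.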

Other observations

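The replicates of the light groups stood in the same order for several of these genes. DFR, UGT78D1 and AT5MAT were lowest in replicate 1 and highest in replicate 2 in all 4 light groups, and UF3GT in 3 of 4. CHIL had 1 order in all 4 light groups too, but another, with replicate 3 lowest and replicate 2 highest. Over the 17059 probe sets tested, 629 (3.69%) had 1 order in all 4 light groups, 188 of them the order of DFR. In the 4 dark groups 1075 (6.3%) had 1 order throughout, 299 of them the order of DFR. UGT78D2 had no common order, with 2 of 4 light groups alike.

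UGT78D3, which lies close to UGT78D2 on chromosome 5 and encodes a flavonol arabinosyltransferase, was dim on every array, at 0.93 to 4.5, in the dark and in the light.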
